A study of Mus musculus with 3 samples.

Results

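The genes described here make pigment in the melanosome, the organelle in which eye, skin and hair cells build and store melanin. They are Pmel, Dct, Tyr and Tyrp1, measured in neural retina of mice that lack Rp1, a protein bound to the microtubules of the photoreceptor outer segment. They are 4 of 8251 genes with a named probe set. All 7 probe sets whose only gene symbol in the platform annotation was one of these 4 were taken, of 12422 probe sets that were not controls (0.0564%): 1 each for Pmel, Dct and Tyr and 4 for Tyrp1. The 4 genes were chosen with their signals on these arrays known, so their values are given as a description, without a test. The data were 3 Affymetrix U74Av2 arrays (1-colour oligonucleotide arrays), 1 per RNA pool of neural retinas from 3 to 4 mice. All mice were Rp1-/-, aged 10 days (P10), on a mixed 129/SvEv and C57BL/6 background, and were sampled in the early afternoon. All 3 arrays formed 1 group with no array of another genotype analysed here, so the comparisons are between pools 1, 2 and 3, whose numbers are names only, and the spread between pools may be partly technical. The rp1 tag in the other array titles is missing from that of pool 1, whose description states the same genotype. No probe set was assigned to Rp1, so the deletion was not checked from the signals.

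In the melanosome, Pmel forms the fibrils on which melanin is laid down. Tyr (tyrosinase) catalyses the rate-limiting step of melanin synthesis, and Dct (dopachrome tautomerase) and Tyrp1 (tyrosinase-related protein 1) act on later intermediates of the brown-black eumelanin path. In the eye these genes mark the retinal pigment epithelium, the pigmented epithelia of ciliary body and iris, and the melanocytes of the choroid, all of which lie outside the neural retina; the factor Mitf drives them in pigment cells through a sequence known as the M-box.

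The promoters of Tyr, Tyrp1 and Dct are shown because the longest run of letters common to all 3 is this box, although the genes differed in whether a signal was detected. The stretches below are from a set of RefSeq promoters on build GRCm38.p6 that held 3 of the 4 genes and no entry for Pmel. Each runs 5′ to 3′ on the gene's strand with 40 bases on either side of the box, which is in capitals. The Tyr stretch is chr7:87493486-87493575 (minus strand), the Tyrp1 stretch chr4:80834125-80834214 (plus strand) and the Dct stretch chr14:118052349-118052438 (minus strand).
Tyr: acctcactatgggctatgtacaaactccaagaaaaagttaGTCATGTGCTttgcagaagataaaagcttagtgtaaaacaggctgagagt
Tyrp1: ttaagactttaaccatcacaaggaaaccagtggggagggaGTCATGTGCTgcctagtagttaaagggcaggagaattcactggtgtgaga
Dct: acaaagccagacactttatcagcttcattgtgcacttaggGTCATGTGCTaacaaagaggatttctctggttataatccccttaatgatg

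The box began 23 bases before the table's start site in Tyr, 48 bases before it in Tyrp1 and 152 bases before it in Dct, each time on the gene's own strand. Searched on both strands of all 32851 promoters of the same length (250 bases before to 50 after the start), GTCATGTGCT was found in 61 (0.186%), from 42 genes. With 1 more base, AGTCATGTGCT was found in 7 promoters (0.0213%), among them Tyr and Tyrp1, and its core CATGTG, which overlaps both longer forms, in 4650 (14.2%). Of the 42 genes, 4 had a named probe set on the array: Tyr, Tyrp1, Dct and C1qb (a complement subunit of microglia). Dct and C1qb had measured signal, and the order of pools in C1qb differed from that in Dct, at 332, 180.1 and 178.7 by 1 probe set and 198.2, 220 and 245.8 by the other. These matches describe the sequence and show no binding.

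Signals are in scaled intensity units, with median signals of 233 to 234 on the 3 arrays. The floor for background came from 19 bacterial and yeast control probe sets on each array, at 100.5, 124.8 and 120.4 in pools 1, 2 and 3, and between 65.5% and 69.7% of probe sets lay above it. Probe sets whose mean signal passed the mean floor (8327) are called measured. As a check of the labelled tissue, all 10 rod genes tested were above the floor in all pools, with Sag (rod arrestin) at 20486.2, 27334.3 and 26845.2. Signals of different probe sets are not relative amounts of transcript, because each set binds its target with its own strength.

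Transcripts of Pmel and Dct were detected in every pool, whereas Tyr and Tyrp1 were at or near background. Pmel gave 319.7 signal units in pool 1, 327.7 in pool 2 and 908 in pool 3, a mean of 518 ± 337 (SD, n = 3). Pools 1 and 2 were alike and pool 3 stood above both, 2.84-fold over pool 1 and 2.77-fold over pool 2. In multiples of each array's floor the signals were 3.18, 2.62 and 7.54. In a pooled tissue, more pigmented cells and more Pmel RNA per cell cannot be told apart.

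The Dct signals were 498.6, 449.8 and 649 in pools 1 to 3, with a mean of 532 ± 104 (SD, n = 3). It was also highest in pool 3, but by less: 1.30-fold over pool 1 and 1.44-fold over pool 2, while pool 1 was 1.11-fold over pool 2. Its signals were 4.96, 3.60 and 5.39 times the floors. The SD of log2 signal between pools was 0.27 for Dct, the same as the median of all measured probe sets (0.27), and 0.86 for Pmel. Pmel thus varied more between pools than Dct did, and in both the highest pool was the same.

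A range between pools above 2-fold was found in 1098 of the 8327 measured probe sets (13.2%), and Pmel was the 1 of the 2 measured members that had it. Pool 3 lay more than 2-fold above both other pools in 71 of them (0.853%), Pmel included, against 67 (0.805%) for pool 1 and 48 (0.576%) for pool 2. The range of Pmel was larger than that of 97.2% of measured probe sets and the range of Dct larger than that of 52.1%. Since both genes were chosen with these values known, the shares place them and support nothing further. Without pool 3, the Pmel range was 0.04 on the log2 scale in place of 1.51, and the Dct range 0.15 in place of 0.53.

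Tyr gave signals of 54.9, 128 and 95.8 in pools 1, 2 and 3. It was above the floor on 1 array, that of pool 2, by 3.2 units, and below it on the other two. The signal of the rate-limiting enzyme was therefore not distinguishable from background in pools 1 and 3 and barely above it in pool 2.

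The 4 probe sets of Tyrp1 gave different results. Set 97954_at had 28.6, 90.8 and 205.8 in pools 1, 2 and 3: only pool 3 was above the floor, at 1.71 times it. Against the floors of the other arrays it was at least 2.05-fold higher than in pool 1 and at least 1.65-fold higher than in pool 2. Pool 3 thus had the highest signal of Pmel, of Dct and of this Tyrp1 set, as it had in 32.2% of all measured probe sets.

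The remaining Tyrp1 sets did not repeat this order. Set 97955_at, from the same sequence record, had 89.3, 84.9 and 73.8 and lay below the floor on every array. Set 97956_g_at, from that record too, had 58.3, 131.3 and 50.4, so that pool 2 alone passed its floor, by 6.5 units. Set 161538_r_at had 15.8, 4.5 and 4.6, all far below the floor. The letter r in its name stands for less strict rules of probe choice. A higher Tyrp1 signal in pool 3 therefore rests on 1 of 4 probe sets.

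**Figure D1:**
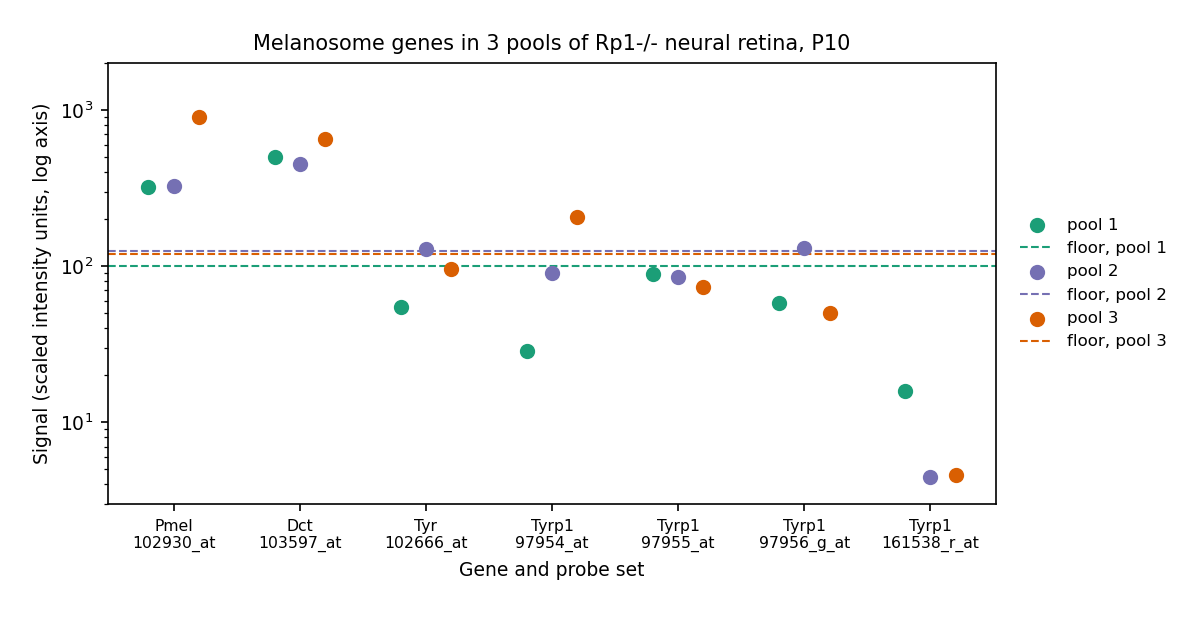
Signal (log axis, scaled intensity units) of the 7 probe sets of Pmel, Dct, Tyr and Tyrp1 in each pool of Rp1-/- neural retina (1 point per array), with each array's background floor as a dashed line of the same colour. Pmel and Dct lie above the floors in all pools, with Pmel at 908 in pool 3, while Tyr and the Tyrp1 sets lie around or below them, apart from 205.8 for 97954_at in pool 3.

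Pmel overlaps Rab5b, Cdk2 and Dgka in the gene table, which lists a long Pmel model. Rab5b (a GTPase of early endosomes) had 417.5, 392.8 and 241 in pools 1, 2 and 3, lowest where Pmel was highest. Cdk2 (a cell cycle kinase) had 171.2, 133.5 and 195.2 by its measured probe set and Dgka (a diacylglycerol kinase) 78.5, 68.7 and 129.8. Both were highest in pool 3, and since Dgka passed the floor there alone, the size of its range is not known.

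Likeness of pattern was taken as the Euclidean distance between mean-centred log2 signals over the 3 pools, among 7481 measured probe sets with a gene symbol. Over so few arrays many genes are close to any pattern. The probe sets nearest to Pmel were those of Pold4 (a DNA polymerase delta subunit; distance 0.081, with its pool 2 signal of 108.3 set to the floor), Rps13 (a ribosomal protein; 0.089), Gnb1 (a transducin beta subunit; 0.13), Chmp6 (an ESCRT-III protein; 0.14) and Cd7 (a lymphocyte surface protein; 0.15). Gnb1 had 4934.2, 5467.4 and 13308.4 by this set, and Chmp6 189.8, 211.9 and 515.3. None of the 5 belongs to the pigment lists, and Dct was at 0.85 from Pmel, with 643 other probe sets closer. Seen from Dct, 6246 other probe sets were closer than Pmel. The sets nearest to Dct were those of Fdps (a farnesyl diphosphate synthase; 0.0065), Mob1b (0.012), Relb (0.020), Fam107b (0.022) and Ppox (a haem synthesis enzyme; 0.025).

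The other measured genes of the melanosome pathway shared no order between the pools. Of 50 such genes in 3 lists, 27 had a probe set and 21 were measured. Of these, 8 were highest in pool 1, 7 in pool 2 and 6 in pool 3, the pool in which 32.2% of all measured probe sets were highest. Mlana, Slc45a2, Slc24a5 and Gpnmb had no probe set, and Gpr143 and Mitf were below the floor in all pools. Of the 21, 11 were from the list of genes that build and move melanosomes and related organelles. Whether the 21 follow the amount of pigmented tissue was not tested. None of the 21 was more than 2-fold higher in pool 3 than in both other pools, which at 0.853% of all measured probe sets is near the background, and 4 had a range above 2-fold, beside 13.2% of all. Pomc, at 0.83 (log2, pool 3 minus the mean of the others), was the 1 of the 21 above the 95th percentile of all measured probe sets (0.72). None passed the test for variation between pools (limma, adjusted p below 0.05). It set the variance of each log2 signal across the 3 arrays against the variances seen at similar intensity. With 1 array per pool, no error within pools was available. A large adjusted p therefore does not show that the pools were alike. That test passed 18 of all 8327 measured probe sets (0.216%), with an unadjusted p below 0.05 in 445; without pool 1, 2 or 3 it passed 40, 10 or 4.

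Among other melanosome proteins, 4 of 6 genes with a probe set were measured, and none was highest in pool 3. Oca2 (a melanosome membrane transporter) had 282.2, 32.8 and 223 in pools 1, 2 and 3, below the floor in pool 2, which pool 1 exceeded at least 2.26-fold and pool 3 at least 1.79-fold (limma, adjusted p = 0.99). Atp7a (the copper pump that supplies tyrosinase) had 479.7, 282.3 and 271.5, highest in pool 1. Cd63 (a tetraspanin that helps sort Pmel) had 966.8, 1226.1 and 838.5, lowest in pool 3, and Gpr137b (a lysosomal membrane protein) 306.6, 227.1 and 232.6. Gpr143 (the ocular albinism receptor of the melanosome) was below the floor in all pools, at 18.6, 69.9 and 5.8, and so was Slc7a11 (a cystine transporter).

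Most genes that build and move melanosomes and related organelles were detected in every pool. Of 13 with a probe set 11 were measured, and all 11 were above the floor on each array. Their median fold range was 1.41, and 3 were highest in pool 3. Hps1 was among these 3 by its brighter set (407.2, 408.7 and 569.4), while its other set (326.7, 342 and 223.3) was lowest in pool 3. Bloc1s1 (a BLOC-1 subunit) had 1311.2, 1293 and 1296.6, and Ap3d1 (a subunit of the AP-3 adaptor, which sorts cargo to melanosomes) 1993.4, 1934.9 and 1700. Ap3b1 and Ap3s1, also of AP-3, had 1392.5, 942.7 and 1072, and 1276.3, 1641.2 and 1239.7. Ranges above 2-fold were seen for Ap3m1 (239.7, 501.7 and 461.5), lowest in pool 1, and for Myo7a (458.6, 893 and 374.9), a myosin that moves melanosomes in the pigment epithelium and was lowest in pool 3 (limma, adjusted p of 0.99 and 0.83). Mlph and Myo5a, which tether melanosomes to actin in skin melanocytes, were not measured: Mlph was below the floor in all pools (60.1, 40 and 73.3) and Myo5a above it in pool 1 (145.4, 67.1 and 98.7).

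Among regulators of pigment cells, Mitf itself was below the floor in all pools, at 92.1, 55.1 and 85.9, and Tfeb was too. Pax6 (a factor of eye development) had 1663.7, 1707.8 and 1856.4, and Lef1 588.9, 759.9 and 554.8. Usf1 (an E-box factor) had 783.2, 1647.4 and 1363.1, lowest in pool 1 (limma, adjusted p = 0.83), while its other probe set, at 342, 688.6 and 303.7, was lowest in pool 3. The hormone precursor and the receptor that switch on melanin synthesis in skin were both highest in pool 3 without passing the test: Pomc had 198.3, 158.2 and 315.9 and Mc1r 285.1, 318.7 and 481.6 (limma, adjusted p = 0.99 for both).

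Markers of neural crest melanocytes gave no common order. Of 8 with a probe set 6 were measured: 1 was highest in pool 1, 3 in pool 2 and 2 in pool 3. Erbb3 (a neuregulin receptor of neural crest cells) had 86.6, 123.1 and 255.8. It was the nearest to Pmel of all genes in the lists, at a distance of 0.31, but ranked 31 among all 7481 probe sets. Only its pool 3 signal passed the floor, at least 2.05-fold above the others (limma, adjusted p = 0.99), while its other probe set was below the floor in all pools. Erbb3 thus counted as measured through pool 3, with pools 1 and 2 set to the floor, so its nearness to Pmel and its excess in pool 3 follow in part from these rules. Erbb3, at 1.19 (log2, pool 3 minus the mean of the others), alone of the 6 exceeded the 95th percentile of measured probe sets (0.72). Sox10 (394.8, 444 and 344.6) and Kitl (221.2, 252.5 and 148.1) were lowest in pool 3. Kit had 333.8, 270.6 and 284.6, and Pax3 79.9, 199.2 and 179. Ednrb and Edn3, a receptor of melanoblasts and its ligand, were below the floor in all pools.

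The measured genes of the pigment epithelium outside melanin synthesis had a median SD of log2 signal of 0.23 between pools, beside 0.27 over all measured probe sets. Of 17 genes in the list, 12 had a probe set and 7 were measured. None of the 7 had a range above 2-fold, beside 13.2% of all measured probe sets. In pool 3, 3 of the 7 were highest, beside 32.2% of all. Rpe65, Lrat and Best1 had no probe set, and Rgr, Stra6 and Serpinf1 were not measured. Whether the 7 follow the amount of pigment epithelium was not tested. Rrh (a retinal opsin of the pigment epithelium) had 406.9, 435.4 and 432.5, and Ttr (the thyroxine and retinol carrier) 208.4, 168 and 231.3. Rlbp1 (retinal-binding protein, also made by Müller glia) had 2014.4, 2832 and 3172.5, and Krt18 273.6, 193 and 344.7, both highest in pool 3 (limma, adjusted p = 0.99 for both). Rdh5 and Krt8 were below the floor in all pools, at 53.4, 69.3 and 77.4 and at 65.2, 104.9 and 25.6. Pool 3 exceeded pool 1 by a median of 0.12 and pool 2 by a median of 0.16 (log2) over the list, beside differences of 0.01 and -0.01 over all measured probe sets. Both signs turned with the processing, the first to -0.11 with the floor at the median control and the second to -0.05 with no filter. That -0.05 is the value of every gene set to the floor in pools 2 and 3, such as Rdh5, and so reflects undetected genes. The summed signal of its 7 genes was 3955, 4573 and 5132 in pools 1, 2 and 3, with Rlbp1 the brightest; the other 6 summed to 1940.4, 1741 and 1959, with no such rise.

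**Figure D2:**
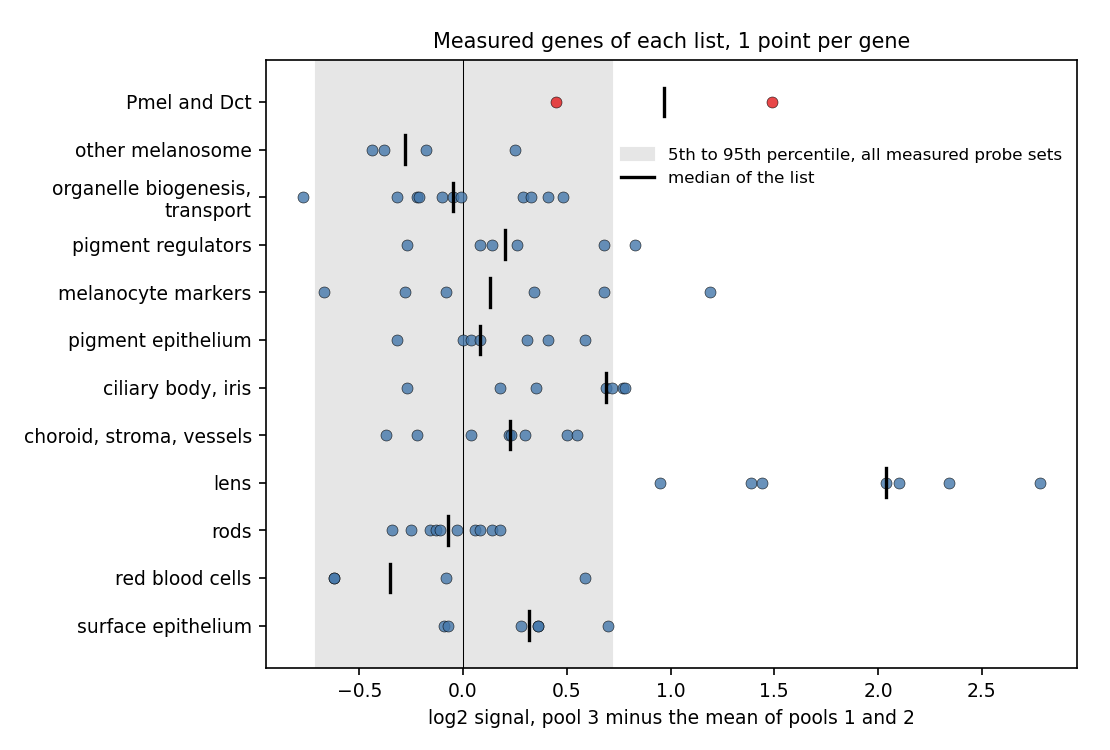
Log2 signal of pool 3 minus the mean of pools 1 and 2 for each measured gene (1 point per gene), by list, with the list's median as a bar and the 5th to 95th percentile of all 8327 measured probe sets (-0.71 to 0.72) in grey. Pmel lies at 1.49 and Dct at 0.45, the 7 lens genes between 0.95 and 2.78, and the 7 pigment epithelium genes between -0.32 and 0.59.

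Lens genes had the widest ranges between pools of the lists described here, with a median of 7.75-fold, and they too were highest in pool 3. The order pool 3, pool 1, pool 2 from high to low held for all 7 lens genes measured and for 14.8% of measured probe sets; Dct had this order, and Pmel did not. Cryaa (alpha-A crystallin) had 18251.8, 3496.7 and 40575.6 and Crygs (gamma-S crystallin) 5709.8, 1552.9 and 20456.4 in pools 1, 2 and 3. Of the 7, 4 passed the test (Cryaa, Crygs, Cryba1 and Crybb2; limma, adjusted p from 0.0003 to 0.001), and 1 did without pool 2 or without pool 3. Leaving out pool 1 gave 6, dropping the intensity trend gave 0 and an ordinary fit gave 3. A second Crybb2 set, of the r class, had 798.8, 846.6 and 991.3. Another Cryab set, not measured, had 202.9, 15.1 and 95.6, above the floor in pool 1 alone. The summed signal of the 7 was 44093, 10799 and 103674. Of the other lens markers with a probe set, Gja3 passed the floor only in pool 3 (143.7) and Hsf4 did so in none. Pools 1 and 2, which differed 1.84 in the median log2 signal of the lens list, differed by 0.04 for Pmel. The part of lens or adjoining tissue in the Pmel signal of pool 3 was not tested.

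**Figure D3:**
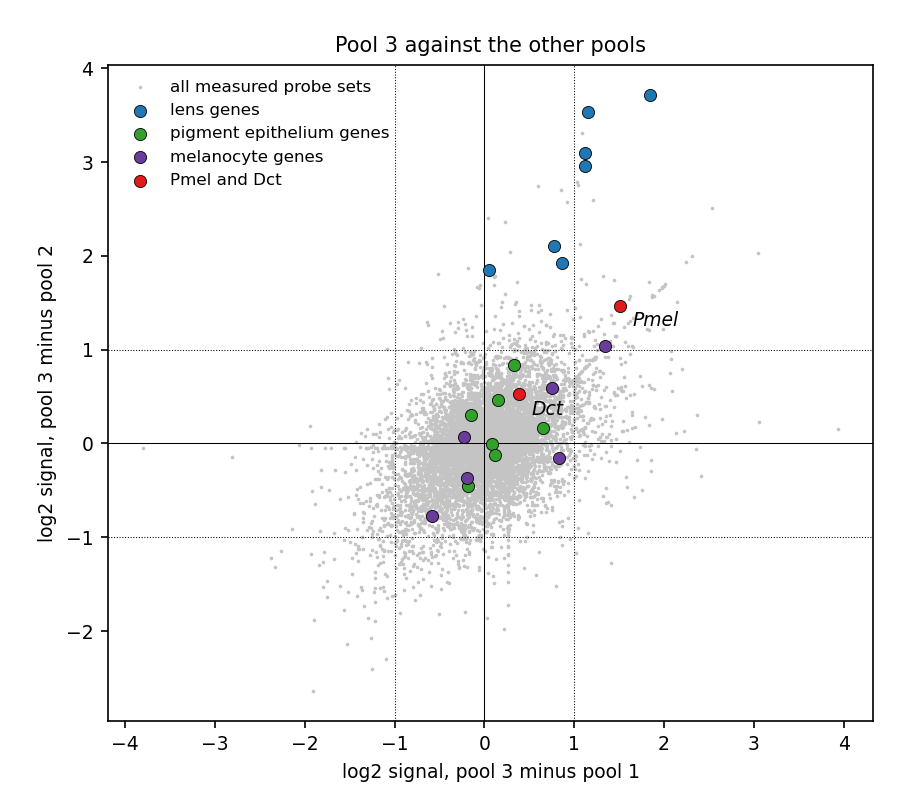
Log2 signal of pool 3 minus pool 1 (horizontal) against pool 3 minus pool 2 (vertical) for the 8327 measured probe sets (grey) and for the measured genes of 4 lists, with signals below the floor set to it and dotted lines at 2-fold. Pmel lies at 1.51 and 1.47, while 4 lens genes lie between 1.11 and 1.84 on the horizontal and between 2.95 and 3.72 on the vertical axis; Dct lies at 0.38 and 0.53.

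Markers of ciliary body and iris, pigmented structures next to the lens, were a median of 0.52 (log2) higher in pool 3 than in pool 1 and 0.25 higher than in pool 2. The first was 0.11 over the 3 genes above the floor on all arrays, and the second 0.06 with no filter on low signal. Of 12 with a probe set 7 were measured, and none passed the test. Highest in pool 3 were 5 of the 7, beside 32.2% of all measured probe sets. Their median for pool 3 minus the mean of the others was 0.69 (log2). Above the 95th percentile of all measured probe sets (0.72) lay 3 of the 7: Msx1 (0.78), Actg2 (0.77) and, by less than the rounding, Aqp1. The pool 2 signal of Aqp1 (20.3) was below the floor. Its other probe set, not measured, had 22.2, 132.6 and 67.9, above the floor in pool 2 alone. Actg2 (a smooth muscle actin, by a set of the f class, which can bind related transcripts) had 538.7, 416.9 and 806.1, and Des (desmin of muscle) 167.1, 99.5 and 232.5. Tagln, also a muscle marker and above the floor in all pools, alone of the 7 was lowest in pool 3, with 165.5, 146 and 128.5. Bmp4 had 405.4, 369.1 and 437.9. Msx1 (a homeobox gene of the ciliary epithelium) had 47.8, 447.3 and 364.2, below the floor in pool 1 and not highest in pool 3 (limma, adjusted p = 0.56). The summed signal of the 7 genes was 1531, 1626 and 2319, and their part in the Pmel signal was not tested.

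Markers of choroid, stroma and vessels were measured for 8 of 11 genes with a probe set, and none passed the test. Of the 8, 4 were highest in pool 3, beside 32.2% of all measured probe sets. None had a range above 2-fold, beside 13.2% of all. Cldn5 (a tight junction protein of endothelium) had 404.3, 445.5 and 621.4, Kdr (a VEGF receptor) 604.1, 662.6 and 744.2, and Col1a1 (a fibrillar collagen) 372.1, 366.7 and 431.6. Col1a2 had 929.7, 1346 and 1149.8 by a set of the r class. Col3a1 (188.2, 127.8 and 87) and Cdh5 (113.2, 173.7 and 96.3) had their lowest signal in pool 3, below the floor there. The median difference of the list was 0.30 (log2, pool 3 minus pool 1) and 0.07 (pool 3 minus pool 2). The latter was -0.01 with the floor at the median control and 0.24 over genes above the floor on all arrays. With no filter it was -0.05, again the value of genes set to the floor in both pools. Surface epithelium genes were measured for 6 of 8, with medians of 0.33 and 0.20, and none passed. Of the 6, 4 were highest in pool 3, among them Lor (651.7, 549.4 and 724.7) and Krt10 (313.2, 403 and 457.4), while Dsp (128.8, 107.4 and 121.2) and Trp63 (154, 115.6 and 130.6) were highest in pool 1. Of 4 red blood cell genes 3 were highest in pool 1, with Hba-a1 (alpha globin) at 16422.3, 9461.1 and 8110.5, and Slc4a1 (the anion exchanger of the red cell membrane; 48.1, 140 and 179.1) was highest in pool 3. The medians of that list were -0.56 (log2, pool 3 minus pool 1) and -0.03 (pool 3 minus pool 2). Rod genes were highest in pool 2 for 9 of 10, with Gnat1 (rod transducin) at 3228.9, 6226.7 and 3765.6.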

How the data were processed

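The deposited intensity values (linear scale, 1 value for each array and probe set) had been scaled by the authors as a whole, as the values show: means after trimming 2% at each end were 500.26, 500.25 and 500.26. The software is not given in the sources used here. After dropping 1 blank row and 66 control probe sets, 12422 remained, of which 10833 had 1 gene symbol in the supplied annotation, 396 several and 1193 none; symbols were updated through gene identifiers (GRCm38.p6 gene table). Signals below an array's floor (90th percentile of 19 negative controls) were set to it before log2 was taken. Variation between pools was tested with limma 3.58.1 in R 4.3.3 (intercept-only model, robust F-distribution fit to the variances with an intensity trend, Benjamini-Hochberg adjustment, threshold 0.05) over 8327 measured probe sets, and the script was tested on simulated data. Each variance was judged against this fitted distribution, because each pool had 1 array and so no error of its own. With 3 arrays, their number limits the precision. A gene was represented by its measured probe set with the highest mean signal. Named genes were chosen from up to 4 per list with the highest signal and 3 with the largest SD of log2 signal, any that passed the test, and the 5 nearest in pattern to Pmel and to Dct. Other list genes, among them those below the floor, and probe sets sharing a promoter box or overlapping Pmel, were picked with their values in view. The members and gene lists were chosen with earlier results of these data known. Alternatives were another floor, filter, normalization or fit, and leaving out each pool. Python 3.11.15, pandas 2.3.3, numpy 2.4.6 and matplotlib 3.10.9 were used for the rest.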

Additional observations from a re-analysis of the deposited data

How the results depend on the processing

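Pmel and Dct stayed above the floor on all 3 arrays with the floor at the median control (41.2, 60.9 and 45.7 in pools 1, 2 and 3) or at the highest control (209.1, 172.8 and 210.6), and after quantile normalization, which gave log2 ranges of 1.54 and 0.55. Without 1 pool the Pmel range lay between 0.04 and 1.51 and the Dct range between 0.15 and 0.53. Tyr and Tyrp1 depend on the floor: at the median control Tyr passed on 3 arrays and the Tyrp1 sets 97954_at, 97955_at and 97956_g_at on 2, 3 and 3, and at the highest control none of these passed on any array.

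Probe sets more than 2-fold higher in pool 3 numbered 221 with the median-control floor, 31 with the highest-control floor, 31 above the floor on all arrays, and 200 to 333 without pool 1 or 2. Those with a 2-fold range numbered 2699, 516 and 671 under the first 3 settings and 428 to 594 without 1 pool. The test for variation between pools passed 52 probe sets with no filter, 6 with an ordinary fit and 4 to 40 without 1 pool. With no intensity trend it passed 0 (377 at an unadjusted p below 0.05, limma). Of 231 list medians recomputed under alternatives, 226 moved by less than the list's median SD, but 16 had the opposite sign, 10 of them for pool 3 minus another pool. Among the 16, medians with no filter of -0.05 (pool 3 minus pool 2) and -0.31 (pool 1 minus pool 2) equal the value of genes set to the floor in both pools. The median of the melanocyte list for pool 3 minus pool 1 (0.28) was -0.13 with the highest-control floor and -0.21 above the floor on all arrays. No paired analysis was possible because the arrays form 1 group.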
